A study of Mus musculus with 8 samples.

Results

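MHC class I molecules carry short peptides from inside a cell to its surface, where CD8 T cells and natural killer cells read them. The 10 genes described here encode that system in the mouse: the classical heavy chains H2-K1 and H2-D1, the invariant light chain B2m, the nonclassical heavy chains H2-T23 and H2-M3, the peptide transporter Tap1 and Tap2, the loading chaperone Tapbp, the trimming enzyme Erap1 and the transcriptional activator Nlrc5. They were chosen by gene name, and each name was found in 1 of the 25477 loci of the expression table, so the 10 genes stand in 10 loci.

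RNA was sequenced from B220+ GFP+ lymphoma cells of mouse spleens, where B220 is a B cell surface protein and GFP a fluorescent reporter. The control group was 4 libraries from cells with a scramble short hairpin RNA (shRNA), and the other group was 4 libraries from cells with an shRNA directed at Crebbp, called shCrebbp. The product of Crebbp is an acetyltransferase of histones, named for its binding to CREB, a factor that also binds class I promoters. Strain, age, sex, the genotype of the lymphoma, the hairpin sequences and the number of animals are not given in the sources used here, and p-values therefore measure the spread between libraries, which may be technical. The scramble libraries share the name prefix AO227. The shCrebbp libraries 1 and 2 are named AO228 and the shCrebbp libraries 3 and 4 AO229, and the labels leave the meaning of these prefixes unstated.

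Heavy chains fold with B2m in the endoplasmic reticulum and are held open by tapasin, the product of Tapbp, until TAP brings in peptides that the proteasome has cut in the cytosol. Class I promoters carry an upstream enhancer read by NF-kappaB and interferon regulatory factors (IRF). Below it lies a module of S, X and Y boxes bound by RFX, CREB/ATF and NF-Y factors, and onto this module Nlrc5 is recruited, as Ciita is at class II genes. In B cell lymphoma, loss of surface class I through B2M or heavy chain lesions is known from human tumours.

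Promoter windows from RefSeq (build GRCm38.p6), from 250 bases before to 50 bases after the annotated start, were found for 8 of the 10 members, and not for Nlrc5 and Tap2. The windows of the 5 members printed here show some or all of the elements through which the genes are thought to be driven together, and capitals mark every match, on either strand, to GATTCCCC (kappaB core), AANNGAAA (IRF half-site), TGACG (cyclic AMP response half-site of the X box) and CCAAT (NF-Y). They lie at chr17:34000298-34000597 on the minus strand (H2-K1), chr17:35262844-35263143 on the plus strand (H2-D1), chr17:37269984-37270283 on the plus strand (H2-M3), chr2:122147437-122147736 on the plus strand (B2m) and chr17:34187306-34187605 on the plus strand (Tap1), each written 5′ to 3′ along the gene.
H2-K1: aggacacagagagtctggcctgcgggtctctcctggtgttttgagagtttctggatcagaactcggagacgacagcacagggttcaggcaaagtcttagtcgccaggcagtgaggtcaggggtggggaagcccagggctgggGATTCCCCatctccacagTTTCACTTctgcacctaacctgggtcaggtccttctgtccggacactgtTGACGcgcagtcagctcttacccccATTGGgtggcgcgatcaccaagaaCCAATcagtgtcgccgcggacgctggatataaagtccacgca
H2-D1: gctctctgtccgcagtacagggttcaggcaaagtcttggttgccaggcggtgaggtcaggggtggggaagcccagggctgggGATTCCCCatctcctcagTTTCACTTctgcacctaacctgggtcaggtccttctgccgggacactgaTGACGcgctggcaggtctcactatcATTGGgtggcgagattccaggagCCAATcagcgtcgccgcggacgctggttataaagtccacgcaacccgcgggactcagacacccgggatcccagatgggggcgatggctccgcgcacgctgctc
H2-M3: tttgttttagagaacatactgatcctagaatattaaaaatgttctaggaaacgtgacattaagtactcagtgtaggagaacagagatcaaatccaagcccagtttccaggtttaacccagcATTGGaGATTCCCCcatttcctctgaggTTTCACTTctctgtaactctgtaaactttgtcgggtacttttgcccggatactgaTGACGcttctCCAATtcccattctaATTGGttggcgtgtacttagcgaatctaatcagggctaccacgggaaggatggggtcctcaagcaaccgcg
B2m: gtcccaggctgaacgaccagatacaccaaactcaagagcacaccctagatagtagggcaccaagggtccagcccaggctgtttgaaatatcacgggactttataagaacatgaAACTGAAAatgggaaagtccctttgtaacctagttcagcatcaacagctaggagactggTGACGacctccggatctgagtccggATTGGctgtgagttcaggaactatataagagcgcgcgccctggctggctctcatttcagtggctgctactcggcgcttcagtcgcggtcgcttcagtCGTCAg
Tap1: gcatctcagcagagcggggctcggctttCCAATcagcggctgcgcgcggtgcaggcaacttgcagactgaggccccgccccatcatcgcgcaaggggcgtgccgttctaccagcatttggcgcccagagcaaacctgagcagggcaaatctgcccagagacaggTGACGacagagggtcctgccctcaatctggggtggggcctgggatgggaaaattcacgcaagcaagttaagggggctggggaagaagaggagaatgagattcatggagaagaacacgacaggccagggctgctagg

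The windows of H2-K1, H2-D1 and H2-M3 each held the kappaB core, then an IRF half-site TTTCACTT, then TGACG and an inverted CCAAT box ATTGG. B2m held an IRF half-site AACTGAAA followed by TGACG and ATTGG, with no GATTCCCC in its window. In these 4 windows 20 bases lay between TGACG and ATTGG, an arrangement found in 19 of the 32851 windows in the table (0.0578%) and in 16 genes, of which these are 4. That spacing was chosen for the count after the sequences had been seen. The kappaB core was present in 3 of the 8 member windows and in 0.840% of all windows. The IRF half-site was present in 6 of 8 and in 23.9% of all windows, TGACG in 5 of 8 and 20.8%, and CCAAT in 7 of 8 and 37.4%. The 5 windows with TGACG are those printed, and the windows of Tapbp, Erap1 and H2-T23 held neither TGACG nor the kappaB core. Tap1 held TGACG and a CCAAT box further upstream, with no kappaB core and no IRF half-site in its window. Its start lies 226 bases from that of Psmb9, an immunoproteasome subunit gene on the opposite strand, and the windows of the pair overlap by 275 bases. Over the aligned bases, gaps left out, the windows of H2-K1 and H2-D1 were 91.2% identical (122 gap bases), against 72.4% for H2-K1 and H2-M3 (72 gap bases). A match is a run of letters and not evidence of binding.

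Expression was given in FPKM, fragments per kilobase of transcript scaled for the amount sequenced, so levels can be set beside each other between genes. Read counts are not given, the depth behind a value is unknown, and the share of loci at 0 ran from 42.4 to 51.8% in scramble and from 33.2 to 46.0% in shCrebbp libraries. Crebbp itself held 33.7, 22.9, 21.3 and 25.8 FPKM in scramble 1 to 4 and 18.9, 26.6, 23.4 and 19.3 in shCrebbp 1 to 4, so the groups overlapped (exact permutation p = 0.314), and the level does not check the labels. The 8 B cell markers in loci of their own summed to 2467 to 2912 FPKM in scramble and 2591 to 3345 in shCrebbp. All 9 markers of that list averaged 1 FPKM or more. Of 11 T and NK cell markers with a locus, 8 averaged under 1 FPKM, and the list summed to 5.99 to 19.3 FPKM in scramble and 6.65 to 18.7 in shCrebbp. Of 10 macrophage and monocyte markers in loci of their own, 6 averaged under 1 FPKM, Csf1r and Cd14 among them. That list summed to 27.6 to 40.2 FPKM in scramble and 10.1 to 23.8 in shCrebbp, without overlap. Ly6c2 alone averaged 12.3 FPKM over the 8 libraries, and the rest of the list summed to 5.95 to 20.2. Of 5 macrophage and monocyte loci tested in the limma fit described below, 4 were lower and 1 higher in shCrebbp (median log2 difference -1.23). At an unadjusted limma p under 0.05, 3 were lower, where 2.93% of all loci were, and 0 passed at an adjusted p under 0.05. The groups did not overlap at 1 of the 5, lower in shCrebbp, where 1.74% of all loci were so. The 6 plasma cell markers summed to 1233 to 2526 FPKM in scramble and 679 to 1646 in shCrebbp, of which Igj averaged 1106 over the 8 libraries. In the same limma fit, all 6 plasma cell markers were lower in shCrebbp and 0 higher (median log2 difference -0.66). At an unadjusted limma p under 0.05, 3 of them were lower, where 2.93% of all loci were, and 0 passed at an adjusted p under 0.05. The part of these cells in the values below was not tested.

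The first comparison asked whether the class I system differed between shCrebbp and scramble cells, in a study whose title speaks of repression after loss of Crebbp. The class I genes were not lower as a group: 5 of the 10 members were lower and 5 higher in shCrebbp, and the values of the groups overlapped for every member. The median log2 difference over the members was -0.01, beside 0.01 over all 11417 loci tested. All differences are shCrebbp minus scramble on the scale of log2(FPKM + 1), fitted with limma across all loci that averaged 1 FPKM or more, a filter that all 10 members passed. At an adjusted p under 0.05, 0 members were called, where 0% of all loci were. At an unadjusted p under 0.05, 0 members were lower, where 2.93% of all loci were, and 1 member, Erap1, was higher, where 2.08% of all loci were. Groups without overlap were found at 1.74% of loci lower and 1.58% higher in shCrebbp, and at 0 of the 10 members in either direction. In bulk RNA, fewer cells of a type and less RNA per cell cannot be told apart.

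**Figure D1:**
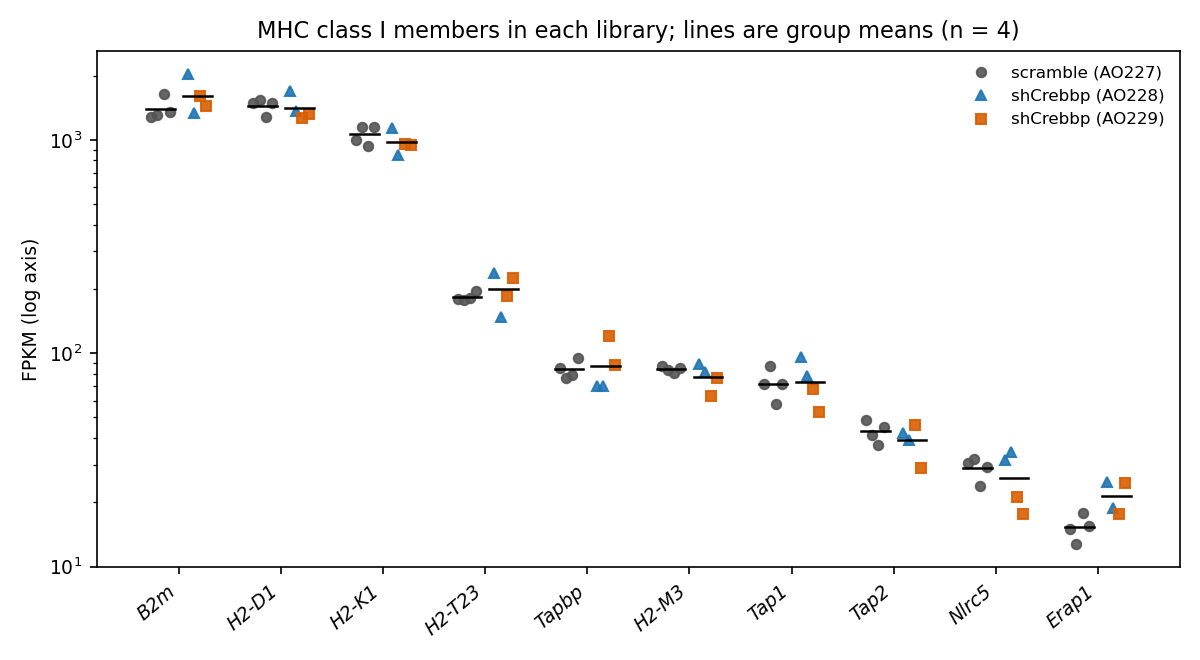
Level of each of the 10 members in FPKM on a log axis, with 1 point for each of the 8 libraries, coloured by group and name prefix, and lines at the group means (n = 4 each). B2m, H2-D1 and H2-K1 stand at 846 FPKM or more in every library, and the groups overlap for every gene.

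Levels differed widely between the members. Averaged over the 8 libraries, B2m stood at 1498 ± 254 FPKM (SD), the H2-D1 locus at 1426 ± 148 and the H2-K1 locus at 1015 ± 116. H2-T23 followed at 191 ± 28.3 FPKM, then Tapbp at 85.6 ± 16.3, H2-M3 at 80.8 ± 8.32, Tap1 at 72.8 ± 14.2, Tap2 at 41.2 ± 6.21, Nlrc5 at 27.5 ± 5.92 and Erap1 at 18.4 ± 4.37. The neighbours B2m and H2-D1 differed by less than their spread, and so did Tapbp, H2-M3 and Tap1. Every library held at least 846 FPKM of each of the light chain and the classical heavy chains, and at most 120.0 FPKM of Tapbp, Tap1 or Tap2. The coefficient of variation over the 8 libraries ran from 10.3% for H2-M3 to 23.7% for Erap1, and H2-D1, at 10.4%, was among the least variable.

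The classical heavy chains present peptides to CD8 T cells. H2-K1 (mm10 chromosome 17, 33969747 to 34000555) held 999.6, 1149.6, 939 and 1148 FPKM in scramble 1 to 4 and 1141, 846, 955 and 945 in shCrebbp 1 to 4. The lowest value was that of shCrebbp 2, while shCrebbp 1 stood with the highest scramble libraries. The means were 1059 ± 107 and 972 ± 123 FPKM (SD, n = 4 each), a log2 difference of -0.13 (standard error 0.17), and the 95% confidence interval ran from -0.52 to 0.26 (exact permutation p = 0.314, two-sided). H2-D1 (chromosome 17, 35262569 to 35443773) held 1484, 1533, 1272 and 1484 FPKM in scramble and 1692, 1359.7, 1269 and 1315 in shCrebbp libraries. Here shCrebbp 1 was the highest of the 8 and shCrebbp 3 the lowest, on either side of the scramble range. The log2 difference was -0.04 (standard error 0.18, interval from -0.45 to 0.37, exact permutation p = 0.771). Neither interval reached below -0.52 on the log2 scale.

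Both values belong to merged loci. The H2-K1 locus also holds H2-K2 and reaches 26.5 kb beyond the gene. The H2-D1 locus holds H2-L, H2-Q4, H2-Q7 and H2-Q8 and reaches 176 kb beyond the gene. The transcripts of H2-K1 and H2-D1 were 91.6% identical over their aligned bases, with 563 further bases in gaps (GENCODE annotation of GRCm38), and 8.79% of the 50-base windows of H2-K1 and 14.3% of those of H2-D1 also occur in transcripts of other genes. How reads that fit several class I genes were shared out is not given in the sources used here. Class I heavy chains also differ between mouse strains, and with no strain in the labels the effect of that on mapping was not tested. The ratio of H2-K1 to H2-D1 was 0.734 ± 0.0428 in scramble and 0.692 ± 0.0564 in shCrebbp (exact permutation p = 0.314, adjusted p = 0.343 over 4 ratios computed).

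B2m (chromosome 2, 122120108 to 122186189), the light chain that all these heavy chains need, held 1278, 1307, 1644 and 1347 FPKM in scramble and 2029, 1329, 1601 and 1446 in shCrebbp libraries. shCrebbp 1 stood above all others, and scramble 3 above the remaining 3 shCrebbp libraries. The means were 1394 ± 169 and 1601 ± 306 FPKM (n = 4 each), a log2 difference of 0.19 (standard error 0.20, interval from -0.27 to 0.65, exact permutation p = 0.286). Set against the sum of the 2 classical chain loci, B2m measured 0.564 ± 0.1201 in scramble and 0.670 ± 0.0579 in shCrebbp. That ratio was 0.515, 0.487, 0.744 and 0.512 in scramble 1 to 4, so scramble 3 alone lay above every shCrebbp library, which ran from 0.603 to 0.720 (exact permutation p = 0.143, adjusted p = 0.286). No 50-base window of B2m was shared with another gene, though its locus reaches 60.7 kb beyond the gene.

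The nonclassical chains have narrower tasks. H2-T23 encodes Qa-1, the ligand of the inhibitory receptor CD94/NKG2A, and H2-M3 presents peptides that begin with formylmethionine, as bacterial and mitochondrial ones do. H2-T23 (chromosome 17, 35994504 to 36042807) held 179, 177, 181.5 and 197 FPKM in scramble and 237, 148, 185 and 225 in shCrebbp. The scramble libraries were close together and the shCrebbp libraries lay on both sides of them. The means were 184 ± 8.83 and 199 ± 40.4 FPKM (log2 difference 0.09, standard error 0.17, interval from -0.29 to 0.47, exact permutation p = 0.571). H2-T23 shared 28.8% of its 50-base windows with other genes, the highest share among the members, and the loci of H2-T22 and H2-T24 carry the same coordinates as its own. The H2-T23 locus reaches 45.2 kb beyond the gene, and that of H2-M3 29.2 kb. H2-M3 (chromosome 17, 37246924 to 37280418, merged with the olfactory receptor gene Olfr99) held 86.7, 83.8, 80.8 and 85.4 FPKM in scramble and 89.2, 81.7, 62.7 and 76.3 in shCrebbp. Its lowest values were those of shCrebbp 3 and 4, below all scramble libraries. The means were 84.2 ± 2.57 and 77.5 ± 11.2 FPKM (log2 difference -0.13, standard error 0.14, interval from -0.44 to 0.18, exact permutation p = 0.343).

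Tap1 and Tap2 form the channel that moves peptides into the endoplasmic reticulum. Tap1 (chromosome 17, 34187556 to 34197225) held 71.4, 87.3, 57.5 and 71.6 FPKM in scramble and 95.5, 78.2, 68.1 and 52.8 in shCrebbp. The highest and the lowest of the 8 values were both shCrebbp libraries, 1 and 4. The means were 72.0 ± 12.1 and 73.6 ± 17.9 FPKM (log2 difference 0.02, standard error 0.20, interval from -0.44 to 0.47, exact permutation p = 0.914). Tap2 (chromosome 17, 34204479 to 34216321) held 48.7, 41.6, 37.0 and 45.2 FPKM in scramble and 42.4, 39.1, 46.2 and 29.0 in shCrebbp. Only shCrebbp 4 lay below the scramble range. The means were 43.1 ± 5.03 and 39.2 ± 7.36 FPKM (log2 difference -0.15, standard error 0.17, interval from -0.53 to 0.23, exact permutation p = 0.486). The ratio of Tap1 to Tap2 was 1.68 ± 0.287 in scramble and 1.89 ± 0.329 in shCrebbp (exact permutation p = 0.343, adjusted p = 0.343).

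Tapbp (chromosome 17, 33916176 to 33937687) encodes tapasin, which bridges TAP and the empty heavy chain. Its locus is merged with Rgl2 and Zbtb22, so its value is that of 3 genes. It held 85.5, 76.7, 79.1 and 95.1 FPKM in scramble and 70.2, 70.4, 120.0 and 87.7 in shCrebbp. shCrebbp 1 and 2 lay below every scramble library and shCrebbp 3 above every one. The means were 84.1 ± 8.21 and 87.1 ± 23.5 FPKM (log2 difference 0.02, standard error 0.19, interval from -0.40 to 0.44, exact permutation p = 0.914).

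Erap1 (chromosome 13, 74639653 to 74693274), the aminopeptidase that trims peptides to the length class I holds, differed most. It held 15.0, 12.8, 17.9 and 15.5 FPKM in scramble and 24.9, 18.9, 17.7 and 24.7 in shCrebbp. shCrebbp 1, 2 and 4 lay above every scramble library, and shCrebbp 3 lay just under scramble 3, which was the only overlap. The means were 15.3 ± 2.09 and 21.5 ± 3.80 FPKM, a log2 difference of 0.46 (standard error 0.17), and the 95% confidence interval ran from 0.08 to 0.84. This did not pass the correction over all loci (limma p = 0.0216, adjusted p = 0.915; exact permutation p = 0.0571, where 0.0286 is the lowest value the 70 divisions can give). Over the alternative settings the difference ran from 0.38 to 0.54 and its lowest adjusted p was 0.526. Against the same scramble libraries it was 0.49 for AO228 and 0.43 for AO229. The locus holds no other gene.

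Nlrc5 (chromosome 8, 94432387 to 94527535) encodes the class I transactivator. It held 30.5, 32.1, 23.98 and 29.2 FPKM in scramble and 31.4, 34.3, 21.2 and 17.6 in shCrebbp. shCrebbp 3 and 4 lay below every scramble library, while shCrebbp 2 lay above every one. The means were 28.9 ± 3.501 and 26.1 ± 8.01 FPKM (log2 difference -0.18, standard error 0.22, interval from -0.68 to 0.31, exact permutation p = 0.486). The ratio of Tap1, 1 of its target genes, to Nlrc5 was 2.48 ± 0.169 in scramble and 2.89 ± 0.414 in shCrebbp (exact permutation p = 0.143, adjusted p = 0.286). Ciita, the class II counterpart of Nlrc5, stood at 87.9 ± 4.45 and 82.1 ± 6.98 FPKM (log2 difference -0.10).

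**Figure D2:**
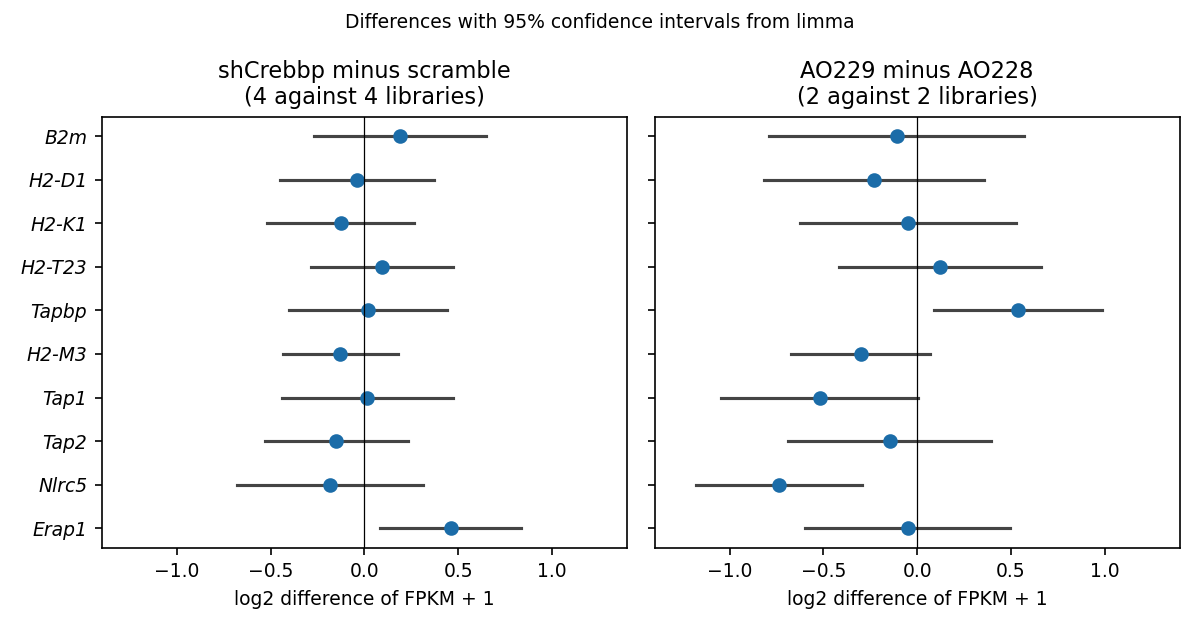
Difference of each member in log2(FPKM + 1) with its 95% confidence interval from limma, for shCrebbp minus scramble (4 against 4 libraries) and for AO229 minus AO228 (2 against 2). The intervals of AO229 minus AO228 use a spread estimated from all 8 libraries. In the first panel only the interval of Erap1 lies off 0, and in the second only those of Nlrc5 and Tapbp do.

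The second comparison set the shCrebbp prefixes against each other, because the shCrebbp libraries often fell on opposite sides of the scramble range. Nlrc5 was lower in both AO229 libraries than in any other library. In AO229, 8 of the 10 members were lower than in AO228, where 49.1% of all loci were, with a median log2 difference of -0.13 beside 0.00 over all loci. Among those lower, H2-K1, B2m, Tap2 and Erap1 changed sign in at least 1 setting with 1 library left out. Other lists also leaned, with 83.3% of immunoproteasome and activator genes lower in AO229, 73.7% of class I regulators and 35.5% of interferon-stimulated genes. The fit had 1 coefficient for each prefix, and its spread was estimated from all 8 libraries, scramble included. With it, limma called 1.28% of all loci at an adjusted p under 0.05, and 0 of the 10 members. The number of loci called, 146, ran from 2 to 522 over the alternative settings. At an unadjusted p under 0.05, 1 member (Nlrc5) was lower in AO229, where 8.64% of all loci were, and 1 (Tapbp) was higher, where 7.75% of all loci were. Each shCrebbp prefix holds 2 libraries, and what a prefix stands for cannot be told apart from the library.

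Nlrc5 averaged 32.9 FPKM in AO228 and 19.4 in AO229, a log2 difference of -0.74 (standard error 0.19, 95% confidence interval from -1.18 to -0.30, limma adjusted p = 0.102). Over the alternative settings the difference ran from -0.87 to -0.61 and its lowest adjusted p was 0.0610. Set against the same scramble libraries, Nlrc5 differed by 0.18 in AO228 and by -0.55 in AO229, neither past the threshold (limma adjusted p = 0.776 and 0.415). Tap1 averaged 86.9 FPKM in AO228 and 60.4 in AO229 (log2 difference -0.52, limma adjusted p = 0.308). H2-M3 differed by -0.30 and H2-D1 by -0.23 in the same direction, and Tap2, B2m, Erap1 and H2-K1 by between -0.15 and -0.05. Tapbp went the other way, from 70.3 FPKM in AO228 to 103.9 in AO229 (log2 difference 0.54, limma adjusted p = 0.219), and H2-T23 differed by 0.12.

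Of the 19 regulators of class I transcription tested, 2 were called between the prefixes, where 1.28% of all loci were. At an unadjusted p under 0.05, 4 were lower in AO229, where 8.64% of all loci were, and 2 were higher, where 7.75% of all loci were. The genes named in this paragraph were chosen after their values were seen. Irf1, an interferon-induced activator of class I transcription, held 165 and 137 FPKM in the AO228 libraries and 80.4 and 70.3 in the AO229 libraries, with 111 to 138 in scramble. It was lower in AO229 by a log2 difference of -0.99 (standard error 0.18, limma adjusted p = 0.0469), a call kept in 7 of 16 alternative settings, with adjusted p from 0.0245 to 0.265. Leaving out scramble 1, 3 or 4 or any single shCrebbp library ended that call (limma adjusted p from 0.0613 to 0.265), as did no filter on low values (0.0761) and a prior without trend (0.0872). Psmb9, which shares its promoter region with Tap1, held 120 and 107 FPKM in AO228 and 66.8 and 68.9 in AO229, with 87.5 to 97.5 in scramble (log2 difference -0.73, limma adjusted p = 0.0638). It was past the threshold with library weights (limma adjusted p = 0.0329) and without scramble 2 (0.0483). Nfkb1, a subunit gene of NF-kappaB, went the other way, from 26.4 FPKM in AO228 to 54.4 in AO229 (log2 difference 1.0, limma adjusted p = 0.0492). Its call was kept in 7 of 16 settings and ended in the same ones as that of Irf1, with adjusted p from 0.0273 to 0.335. The interferon gamma receptor gene Ifngr2 averaged 5.38 and 14.7 FPKM (log2 difference 1.30, limma adjusted p = 0.0894). Ezh2, the catalytic subunit gene of a histone methyltransferase complex, was at -1.41, and Rela, another NF-kappaB subunit gene, at 0.79, neither past the threshold (limma adjusted p = 0.0615 and 0.0894). B cell markers summed to 2591 and 3132 FPKM in the AO228 libraries and to 3228 and 3345 in AO229. Dendritic cell markers, mostly Flt3, summed to between 32.9 and 39.6 FPKM in AO228 and between 16.7 and 22.2 in AO229. Of these 7 markers, 5 averaged under 1 FPKM, and without Flt3 the list summed to 0.477 to 7.35 FPKM. Of 2 dendritic cell loci tested, 1 was lower and 1 higher in AO229. Stromal and endothelial markers summed to between 15.3 and 16.4 FPKM in AO228 and between 41.7 and 48.1 in AO229, with 19.9 to 40.6 in scramble. These sums were nearly all Pecam1. Of the 6 markers, 5 averaged under 1 FPKM, and without Pecam1 the list summed to 0 to 0.984 FPKM. Erythroid markers, mostly Tfrc, summed to between 21.98 and 22.3 FPKM in AO228 and between 17.0 and 20.5 in AO229. Of the 4 in loci of their own, 3 averaged under 1 FPKM, and without Tfrc the list summed to 0.334 to 1.96 FPKM. Of 3 erythroid loci tested, 1 was lower and 2 higher in AO229 (median log2 difference 0.27). The other marker lists overlapped between the prefixes. Plasma cell markers summed to 822 to 1646 FPKM in AO228 and 679 to 983 in AO229, and T and NK cell markers to 9.41 to 15.4 and 6.65 to 18.7. Macrophage and monocyte markers summed to 11.8 to 15.4 FPKM in AO228 and 10.1 to 23.8 in AO229, and neutrophil markers to 0 to 3.87 and 0.449 to 4.18. Each of these ranges rests on 2 libraries. The part of any of these cells in the difference between the prefixes was not tested.

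**Figure D3:**
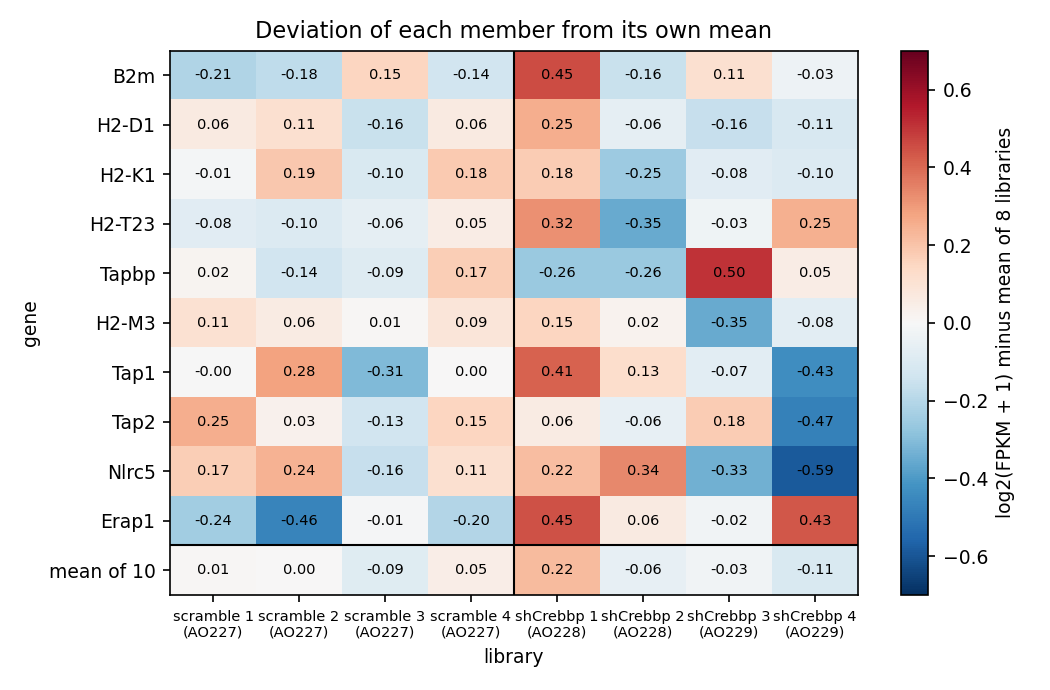
Deviation of each member from its own mean over the 8 libraries in log2(FPKM + 1), as coloured and numbered cells, with the mean of the 10 members in the last line. shCrebbp 1 has the highest mean, at 0.22, and Nlrc5 is lowest in shCrebbp 4 and shCrebbp 3.

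The members varied together only in part. The mean deviation over the 10 members, in log2(FPKM + 1), was 0.22 in shCrebbp 1, where 9 of 10 members lay above their own mean, and -0.11 in shCrebbp 4, where 3 did. In the other 6 libraries it lay between -0.09 and 0.05. The heat map of deviations shows that shCrebbp 1 and 2, which share a prefix, differed in H2-T23 and B2m by more than the group means did. Over the 8 libraries, Tap1 had the highest correlation with Nlrc5 among the 9 other members, with a Pearson r of 0.82 (exact permutation p = 0.0121, adjusted p = 0.109) and a Spearman rho of 0.857 (exact permutation p = 0.0107, adjusted p = 0.0964). Without shCrebbp 3 and 4, the libraries farthest from the median of Nlrc5, r for Tap1 was 0.79. For H2-M3 and H2-D1 r was 0.67 and 0.66, for Tap2 0.58, for H2-K1 0.30, for B2m -0.18, for Erap1 -0.42 and for H2-T23 -0.43. Without the same pair of libraries these became, in that order, 0.34, 0.51, 0.31, 0.04, -0.28, 0.02 and -0.20. For Tapbp r was -0.59, and -0.38 without that pair, with a rho of -0.762 (exact permutation p = 0.0368, adjusted p = 0.165). None of the 9 relations passed the correction. They were not computed within a prefix, and AO228 and AO229 hold too few libraries for that.

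The loci outside the system whose profile over the 8 libraries was most like the mean deviation of the members were Pcyt2 (Pearson r = 0.96), Lat2 (0.96), Zfp182 (0.94), Gpbp1l1 (0.93) and H2-DMa (0.93), the last a class II peptide-loading gene. Pcyt2 encodes an enzyme of phosphatidylethanolamine synthesis and Lat2 an adaptor of antigen receptor signalling. These are the highest values among the single-gene loci tested, with members, predicted genes and small RNAs left out, and so are a description without a test. They rest in part on shCrebbp 1, without which r was 0.86, 0.87, 0.81, 0.73 and 0.69 in the same order.

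The rest of the class I pathway was measured in the same fit of shCrebbp against scramble, and 0 loci of any list were called. Up to 3 genes of smallest p in each list are named, from the loci that are reported here. Among other class I heavy chains, 4 of the 11 with a locus outside those of the members passed the filter, 3 lower and 1 higher (median log2 difference -0.06). H2-T22 (merged with H2-T9) stood at 56.9 and 54.2 FPKM in scramble and shCrebbp, H2-T24 at 10.4 and 10.4, and H2-Q2 at 4.67 and 3.39 (log2 difference -0.44). Of 3 class I-like genes encoded outside the MHC, 1 was lower and 2 higher (median 0.12). Mr1, which presents vitamin B metabolites, stood at 1.85 and 2.12 FPKM (log2 difference 0.12). Cd1d1, which presents lipids, stood at 9.31 ± 6.20 and 9.90 ± 11.2 FPKM. It was the lower gene on the log2 scale (log2 difference -0.37), though its mean FPKM was slightly higher in shCrebbp.

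Of the 8 other loading and glycoprotein folding genes, 5 were lower and 3 higher (median -0.06), and at an unadjusted p under 0.05 there was 1 lower, which is not reported here, and 1 higher, where 2.93% and 2.08% of all loci were. Tapbpl, the peptide editor related to tapasin, averaged 11.1 ± 1.602 FPKM in scramble and 15.9 ± 3.998 in the shCrebbp libraries (log2 difference 0.46, limma adjusted p = 0.915). It held 12.4, 9.33, 10.3 and 12.6 FPKM in scramble and 21.5, 14.9, 12.0 and 15.1 in shCrebbp, with shCrebbp 3 inside the scramble range. Ganab (merged with Ints5), a glucosidase subunit gene of glycoprotein quality control, differed by -0.27.

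Of the 6 immunoproteasome and activator genes, 5 were higher and 1 lower (median log2 difference 0.18), and at an unadjusted p under 0.05 there were 1 higher and 0 lower, where 2.08% and 2.93% of all loci were. Psme2, a subunit gene of the proteasome activator PA28, held 46.8, 40.1, 61.2 and 56.4 FPKM in scramble and 88.7, 62.5, 63.0 and 82.0 in shCrebbp. The groups did not overlap, though shCrebbp 2 and 3 lay close to scramble 3. The log2 difference was 0.53 (standard error 0.18, limma adjusted p = 0.915), and Psme1, the other PA28 subunit gene, differed by 0.12. Psmb10 and Psmb8, catalytic immunosubunits, differed by 0.25 and 0.21, and Psmb9, the other one, by -0.09. The constitutive catalytic subunits Psmb7 and Psmb6 differed by 0.21 and 0.22 and Psmb5 by 0.00. Of 6 cytosolic peptidases, 5 were lower and 1 higher (median -0.08), with Blmh at 0.29, Thop1 at -0.10 and Tpp2 at -0.08.

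Among 19 regulators of class I transcription, 11 were lower and 8 higher (median -0.02), with 2 higher and 0 lower at an unadjusted p under 0.05, where 2.08% and 2.93% of all loci were. Nfya, a subunit gene of NF-Y, held 8.41, 8.16, 8.28 and 7.25 FPKM in scramble and 14.4, 10.2, 12.7 and 10.2 in shCrebbp. Every shCrebbp library lay above every scramble library (log2 difference 0.50, standard error 0.16, limma adjusted p = 0.915). Rfxank, an RFX subunit gene, stood at 4.44 ± 1.07 and 6.31 ± 0.713 FPKM (log2 difference 0.44), and Creb1, the gene of CREB, at 20.7 ± 3.46 and 29.1 ± 9.67 (log2 difference 0.44). Partners in the same complexes had other values, with -0.17 for Nfyb, -0.23 for Nfyc, 0.00 for the merged locus of Rfx5 and 0.03 for Rfxap. Of 8 interferon receptor and kinase genes, 3 were lower and 5 higher (median 0.01), with Tyk2 at 0.18, Jak1 at 0.11 and Ifngr2 at -0.44.

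**Figure D4:**
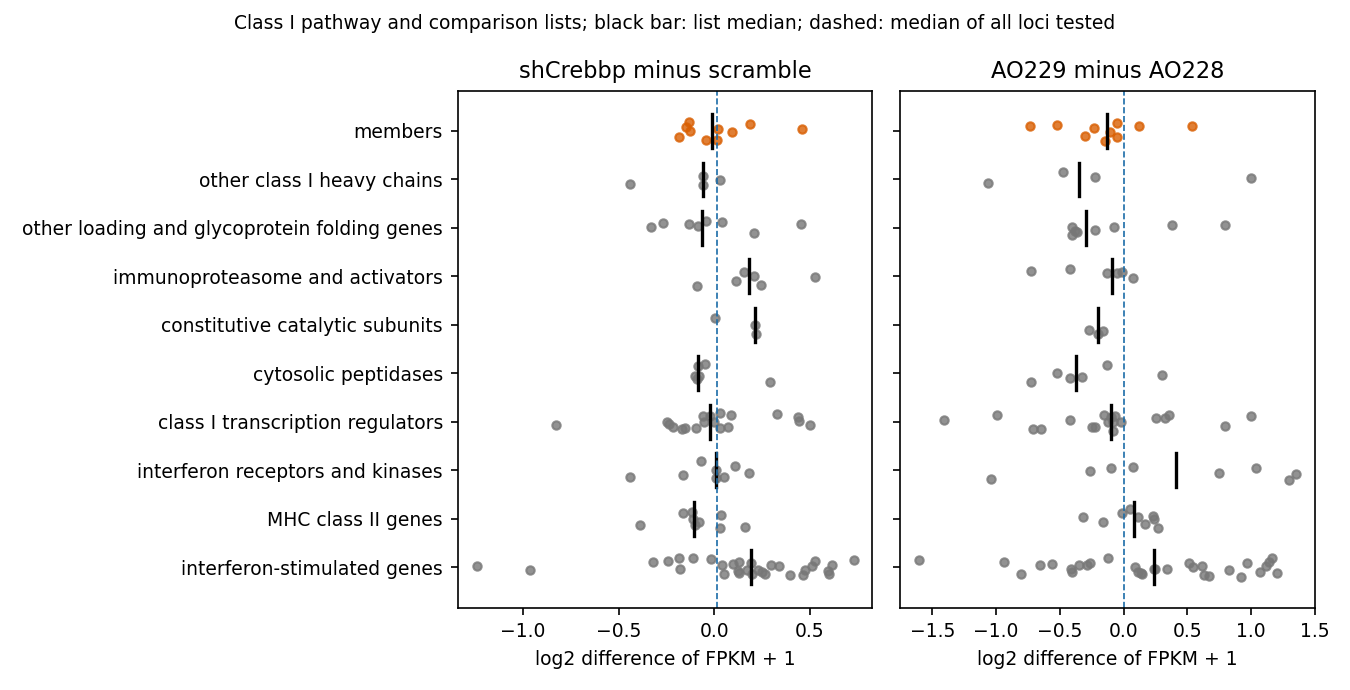
Log2 differences of every tested gene except Cd74 in the members and in 9 related lists, for shCrebbp minus scramble and for AO229 minus AO228, with a black bar at each list's median and a dashed line at the median of all loci tested. Cd74, at -3.35 and -6.32, is left out for scale. The members are centred near 0 in the first panel, and the interferon-stimulated genes spread most widely.

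Class I genes respond to interferon and share their promoter module with class II genes, so both sets are given for comparison. Of 31 interferon-stimulated genes tested, 23 were higher and 8 lower in shCrebbp (median 0.19, beside 0.01 over all loci). The lower ones were 25.8% of the list, where 48.0% of all loci were lower. At an unadjusted p under 0.05 there were 4 higher and 2 lower, where 2.08% and 2.93% of all loci were. Only 17 of the list averaged 5 FPKM or more, 14 higher and 3 lower (median 0.23). Dtx3l, a ubiquitin ligase gene, stood at 6.40 ± 0.932 and 11.5 ± 3.07 FPKM (log2 difference 0.73), Ifi35 at 19.2 ± 6.17 and 28.9 ± 5.10 (0.60) and Zbp1, a sensor of Z-form nucleic acids, at 14.6 ± 2.91 and 20.7 ± 4.22 (0.47). Without shCrebbp 3, 16 were higher and 13 lower (median 0.11). With the AO228 libraries alone the median was 0.04 and with the AO229 libraries alone 0.36. The medians of the members were 0.05 and -0.15 in the same settings. Of 10 class II loci, 7 were lower and 3 higher (median -0.10), among them H2-Eb2, an E beta chain gene, at 57.9 ± 8.53 and 43.9 ± 6.71 FPKM (log2 difference -0.39), and H2-Ob, a chain gene of the loading inhibitor DO, at 311 ± 33.5 and 349 ± 57.9 (0.16). Cd74, the invariant chain gene, was listed at 0 in shCrebbp 3 and between 7168 and 10342 FPKM in the other 7 libraries.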

How the data were processed

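Total RNA over 200 nt was sequenced from 8 samples after ribosomal RNA removal with a stranded kit, per the labels. CASAVA 1.8, TopHat2, Cufflinks and the build mm10 appear in the submitters' processing notes, without roles or parameters. The authors deposited 1 table of FPKM per locus, a unit inferred from the values and the locus identifiers because the header names none. Of its 13 sample columns, 8 matched samples by name and 5 were not used. Of 25478 lines, 1 was empty, and 630 of the 25477 loci merge several genes. A clear step in low values was found in 2 of 7 libraries, so read counts and depth were not recovered, and precision was read from replicates alone.

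The 11417 loci that averaged 1 FPKM or more were fitted on the scale log2(FPKM + 1) with limma 3.58.1 in R 4.3.3 (two-sided, with an empirical Bayes prior that follows the mean, Benjamini-Hochberg adjustment over all loci, threshold 0.05), after the fit had been tested on simulated data. The prefixes were fitted as 3 coefficients. Single genes were compared by an exact permutation test over 70 divisions. The members and gene lists were chosen with earlier results of these data known. Genes named are the members, Crebbp, Ciita, up to 3 of smallest p in each pathway list among the loci reported here, and the 5 loci most correlated with the members. Those 5 were taken from single-gene loci, without predicted genes and small RNAs, which were recognized by name. Irf1, Nfkb1, Psmb9, Ezh2, Rela and the partners Psme1, Nfyb, Nfyc, Rfx5 and Rfxap were added after their values were seen. Some genes and merged loci are not reported here. Where several loci hold a symbol, that of highest mean was used, and starts were converted to count from 1. Alternatives were pseudocounts of 0.1 and 0.01, a filter at 5 FPKM or none, summed loci, scaling, normalization, priors, library weights, each prefix alone and each library left out.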

Additional observations from a re-analysis of the deposited data

Results flagged for a closer look

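None of the 10 members had a library far from the others of its group, by the gap between an extreme library and its nearest neighbour as a share of the group's range, set against Dixon's 95% critical value for 4 libraries. Among the 90 groups of 4 tested, 8 passed it, and chance gives about 1 in 20 groups. shCrebbp 1 was the high library for Psmb6 (97.5 FPKM, share 0.8433), Zbp1 (26.9 FPKM, 0.8583), Pcyt2 (21.6 FPKM, 0.8442), Zfp182 (5.18 FPKM, 0.8776) and Gpbp1l1 (56.8 FPKM, 0.9282). Pcyt2, Zfp182 and Gpbp1l1 were picked for their likeness to the members, whose own mean was highest in the same library. Psmb5 was high in scramble 1 (55.1 FPKM, 0.8874), and Mr1 was low in shCrebbp 2 (1.06 FPKM, 0.9001). Cd74 was listed at 0 in shCrebbp 3 (0.9752).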

How the results depend on the processing

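Under all 19 alternative settings 0 members were called between shCrebbp and scramble, with a lowest adjusted p of 0.415. H2-K1, B2m, Tap2, Erap1 and H2-T23 kept their direction in each of the 19. With 1 library left out their differences ran from -0.21 to -0.063, 0.0685 to 0.27, -0.23 to -0.0157, 0.38 to 0.54 and 0.0007 to 0.23, and those of Nlrc5 and H2-M3 from -0.33 to -0.019 and -0.20 to -0.0328. The number of loci called was 0, 1 with AO228 alone, 3 with AO229 alone and 0 to 2 with 1 library left out (2 without scramble 1, 1 without shCrebbp 1). The members' median of -0.0121 became -0.1533 with AO229 alone and ran from -0.1248 (without shCrebbp 1) to -0.0031 with 1 library left out. Between the prefixes 146 loci were called, 27 without a filter, 240 at a mean of at least 5 FPKM, 2 with a prior without trend, 495 with library weights and 3 (without scramble 1 or scramble 3) to 522 (without scramble 2) with 1 library left out, among these 8, 15, 11 and 71 without shCrebbp 1, 2, 3 and 4.

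The log2 differences below changed sign, none past the threshold, and the cause was not tested. With AO228 alone H2-D1 was at 0.0753, Tapbp at -0.25, Nlrc5 at 0.18, H2-M3 at 0.0209, H2-Q2 at 0.0897, H2-T22 at 0.0518, Mr1 at -0.0747 and Tpp2 at 0.13. With AO229 alone Tap1 was at -0.24, H2-T24 at 0.44, Cd1d1 at 0.97, Psmb8 at -0.0009, Psmb5 at -0.0962, Thop1 at 0.0506, Ifngr2 at 0.21 and Jak1 at -0.022. With library weights Tap1 was at -0.0771, H2-T24 at 0.0665, Cd1d1 at 0.11, Psmb5 at -0.12 and Thop1 at 0.0492. Summed loci gave 0.0991 for H2-T24 and median-of-ratios scaling -0.0043 for Psmb5. With 1 library left out the range was -0.13 to 0.0068 for H2-D1, -0.12 to 0.16 for Tap1, -0.15 to 0.11 for Tapbp, -0.14 to 0.0588 for H2-T22, -0.26 to 0.14 for H2-T24, -1.02 to 0.21 for Cd1d1, -0.12 to 0.31 for Psmb5, -0.20 to 0.0487 for Thop1 and -0.21 to 0.0302 for Tpp2. Between the prefixes it was -0.26 to 0.17 for H2-K1, -0.41 to 0.20 for B2m, -0.47 to 0.18 for Tap2, -0.28 to 0.18 for Erap1 and -0.21 to 0.46 for H2-T23, where a prefix left with 1 library is assumed to vary like the others. No paired analysis was possible because replicates were numbered in accession order and nothing ties one library to another.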
